A study of Mus musculus with 10 samples.

Results

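The chaperone genes were taken as the rows of the deposited table with a matching symbol and a base mean of at least 10. Their symbols name a member of the Hsp70, Hsp110, Hsp90, Dnaj, Bag or chaperonin families or the adaptor *Stip1*. The names searched for did not include *Bag3*, and *Hspa5* was left out. The base mean is the authors' mean over all libraries of read counts divided by size factors. Of 25232 genes in the table, 80 matched by name and 72 were members. The 7 genes that matched but fell under the minimum were *Dnajc5g*, *Dnajb8*, *Dnajc5b*, *Dnajb7*, *Cct8l1*, *Dnajc22* and *Cct6b*. Just under the minimum stood *Cct6b* at a base mean of 8.53, *Dnajc22* at 4.23 and *Cct8l1* at 2.95, and just over it *Dnajb13* at 17.8, *Dnajb3* at 23.8 and *Dnajc25* at 53.2. *Hspa5*, the Hsp70 of the endoplasmic reticulum, had a base mean of 6538.6.

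RNA of the spinal cord was sequenced from 5 *SOD1 G93A* and 5 WT female C57BL/6 mice at 90 days of age. The *SOD1 G93A* mice carry many copies of a mutant human *SOD1* transgene and model familial ALS, the WT mice were littermates, and by the study's methods the lumbar part was dissected. The table pools both genotypes in 1 base mean per gene, so the levels below describe the 10 libraries together, the spread between mice cannot be given, and whether neighbours in an order of levels differ cannot be judged. The genotypes were not compared here.

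Chaperones bind proteins that are not folded and let them fold, refold or be passed on for degradation. Hsp70 proteins hold short hydrophobic stretches in a cycle of ATP hydrolysis. J proteins (the Dnaj families) start this cycle, and nucleotide exchange factors (Hsp110 and many Bag proteins) end it. Hsp90 takes over clients such as kinases and receptors from Hsp70 through the adaptor Stip1, and chaperonins enclose a protein in a ring, in the cytosol the CCT ring, which folds actin and tubulin, and in mitochondria the Hspd1 chamber with its lid Hspe1.

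Markers of the cells of the spinal cord were present in the pooled libraries. All 4 neuronal, 4 oligodendrocyte, 4 astrocyte and 4 microglial markers were over the minimum, as were 4 *Hox* genes of the spinal cord, all 4 motor neuron and all 3 endothelial markers. Among forebrain markers, *Neurod6* had a base mean of 78.9, *Tbr1* of 3.60 and *Emx1* of 0.993. Markers of skeletal muscle had base means from 89.1 to 251.1 and those of liver from 22.9 to 46.8, and their part in the levels of the chaperones was not tested. In such bulk tissue, fewer cells of a type and less RNA per cell cannot be told apart.

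Chaperone transcripts were abundant. The 72 members were 0.452% of the 15918 genes at or over the minimum and held 1.18% of the summed base mean of the whole table. To compare genes, the base mean was divided by the length of all annotated exons merged, in kb, and levels per kb are on this length unless another is named. The median base mean per kb was 352.9 over the members and 116.5 over the 15624 genes at or over the minimum that had a length, and 58 members (80.6%) were above the latter. These 15624 genes are the background of every median and percentile of other genes given below. They were not limited to genes that encode a protein, whereas 71 of the 72 members are annotated as such. The part of this in the gap was not tested. A base mean per kb over 658.7, the 90th percentile of these genes, was reached by 26 members. These 26 included members from every role, from Hsp70 to the chaperonins. Only *Hsp90ab1*, *Hspa8* and *Hsp90aa1* were over the 99th percentile, at 3440.9 per kb, and these 3 genes held 38.8% of the members' base mean. From the highest to the lowest member the base mean per kb spanned 1847.8-fold.

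**Figure D1:**
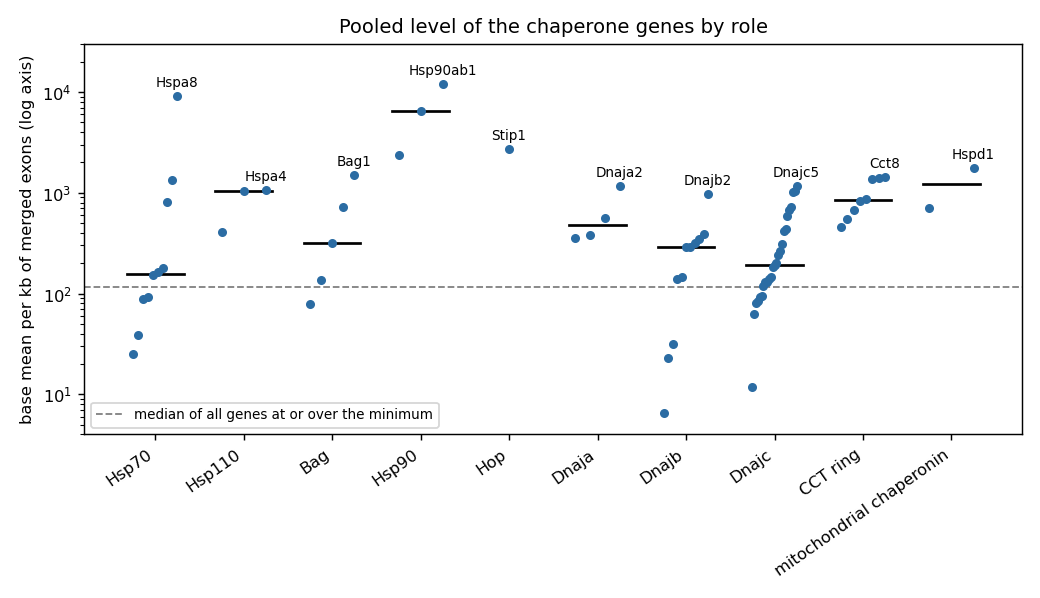
Base mean per kb of merged exons (log axis) of the 72 chaperone genes by role, pooled over 10 libraries; each point is 1 gene, black lines are medians of a role, the dashed line is the median of the genes at or over the minimum (116.5), and the highest gene of each role is named. All 3 *Hsp90* genes among the members lie at or above 2393 per kb, while the 10 *Hsp70* genes spread from 25.4 to 9232.

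The *Hsp70* genes were the most uneven role. *Hspa8*, which encodes the constitutive cytosolic Hsp70 (Hsc70), had the highest base mean of all members, 39707.9, and a base mean per kb of 9232. It lies on the plus strand at chr9:40800984-40810087 of GRCm38. *Hspa9*, the Hsp70 of mitochondria, followed at 1343 per kb, and *Hspa12a*, a distant relative of Hsp70 found in brain, at 808 per kb. Per kb of coding sequence *Hspa12a* was above *Hspa9*, at 3669.5 against 2841.3. The other 7 genes of the role were all under 200 per kb.

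The heat-inducible genes were at the bottom of the role. *Hspa1a* and *Hspa1b*, which encode nearly the same inducible Hsp70 protein, had base means per kb of 38.7 and 25.4. *Hspa8* was thus 238-fold above *Hspa1a* and 364-fold above *Hspa1b* in base mean per kb, and 428-fold and 654-fold per kb of transcript. Both genes lie on the minus strand of chromosome 17, 9951 bases apart, and *Hspa1l*, a relative expressed mainly in testis, begins 546 bases beyond *Hspa1a* on the opposite strand. *Hspa1l* had a base mean per kb of 93.1, and 71.9% of its exon bases overlap the antisense gene *Gm10501*. The libraries were stranded, but the strand setting of the counting was not given in the sources used here, so the reads of such overlapping pairs may not have been told apart. Exons of 30 members overlap another gene, which encodes a protein for 21 of them.

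The remaining *Hsp70* genes had levels per kb between those of *Hspa12a* and *Hspa1a*. *Hspa2*, best known from testis, stood at 179 per kb, *Hspa14*, which works at the ribosome, at 163.5 per kb and *Hspa13*, of microsomes, at 151 per kb. *Hspa12b*, the endothelial relative of *Hspa12a*, had a base mean per kb of 87.5, so that *Hspa12a* was 9.24-fold higher. That ratio was 13.7 per kb of transcript and 23.4 per kb of coding sequence. These 4 genes together with *Hspa1a*, *Hspa1b* and *Hspa1l* make up the 7 members of the role under 200 per kb.

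Near-identical copies limit what counts of uniquely mapped reads can show for some members. Because the reads were 100 bases long, each member's annotated transcripts were cut into windows of 100 bases and searched for in the transcripts of genes at other loci. Such shared windows made up 49.9% of those of *Hspa1b* and 48.6% of *Hspa1a*, mostly shared between the 2 genes. The share was 38% for *Hsp90aa1*, 28.5% for *Hspa8* and 23.4% for *Hspd1*, where nearly all the copies were pseudogenes. It was between 5% and 15% for *Dnajb6*, *Hspe1*, *Dnaja1* and *Hspa1l*, and 0 for 52 of the 72 members. A read from such a window is placed only where its mate is distinct, and how many reads were lost was not measured. With length counted as a gene's unshared windows, *Hspa8* was 139-fold above *Hspa1a* and 207-fold above *Hspa1b*. These windows are counted over all transcripts, and *Hspa8* has 5110 of them in all against 4301 merged exon bases. The effect of the shared sequence was thus not separated from that of the changed length.

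**Figure D2:**
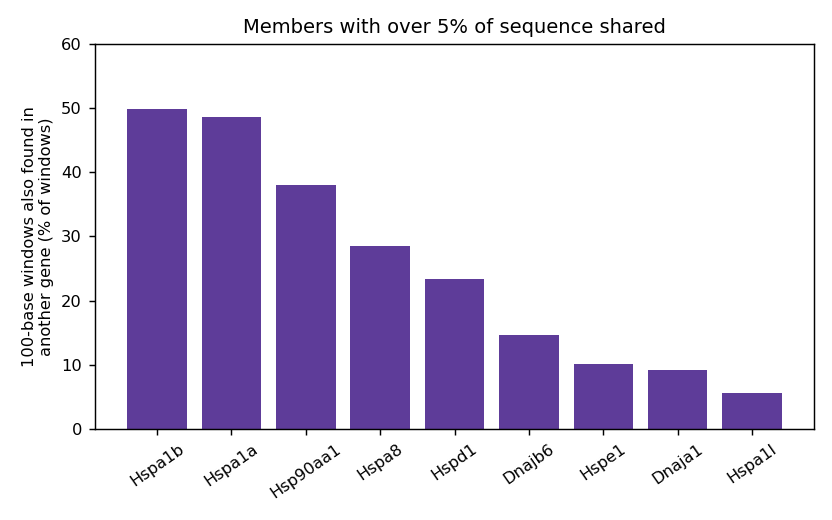
Share of 100-base windows of a gene's transcripts that also occur in a gene at another locus (percent of its windows), for the 9 members over 5%; each bar is 1 gene. *Hspa1b* and *Hspa1a* stand highest, at 49.9% and 48.6%, followed by *Hsp90aa1* at 38%.

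The *Hsp110* and *Bag* genes had higher medians and narrower spans than the *Hsp70* genes, whose median base mean per kb was 157.5 and whose span was 364-fold. Of the *Hsp110* genes, large relatives of Hsp70 that help release its client, *Hspa4* had a base mean per kb of 1067 and *Hsph1* of 1038. Per kb of transcript *Hsph1* was above *Hspa4*, at 1984 against 1277, and per kb of coding sequence too, at 2930 against 2335. *Hspa4l* had 406.5 per kb on longer merged exons, 11792 bases against 5528 for *Hspa4*. Its base mean of 4793.9 was closer to that of *Hspa4*, 5898.3. Per kb of coding sequence *Hspa4* was 1.225-fold above *Hspa4l*. The *Hsp110* genes held 6.97% of the members' base mean.

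Most *Bag* genes encode proteins that bind Hsp70 through a shared domain. *Bag1*, which also links Hsp70 to the proteasome, had the highest base mean per kb of the 5, 1486. *Bag6*, which holds membrane proteins on their way to the endoplasmic reticulum, had 728 per kb and *Bag5* 317 per kb. *Bag4*, a silencer of death receptor signalling, had 136 per kb, and *Bag2*, which inhibits the ubiquitin ligase Stub1, was lowest at 79.1 per kb. The 5 genes thus spanned 18.8-fold, against 2.62-fold over the 3 *Hsp110* genes.

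The *Hsp90* genes among the members were few and very abundant. *Trap1*, the Hsp90 of mitochondria, is not matched by the names searched for and had 787 per kb. The 3 genes held 27.3% of the members' base mean, more than the 10 *Hsp70* genes with 21.4%. *Hsp90ab1*, the constitutive cytosolic form at chr17:45567775-45573271 on the minus strand, had the highest base mean per kb of merged exons of all members, 12044. Per kb of transcript *Hspa8* was above it, at 16586 against 14333, and per kb of coding sequence too, at 20489 against 16629. *Hsp90aa1*, the inducible cytosolic form on chromosome 12, had 6539 per kb, and *Hsp90b1*, the form of the endoplasmic reticulum, had 2393 per kb.

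How far apart the cytosolic *Hsp90* forms stood depended on how length was taken. *Hsp90ab1* was 1.84-fold above *Hsp90aa1* per kb of merged exons and 1.42-fold above it per kb of coding sequence. With length counted instead as a gene's 100-base transcript windows that occur in no gene at another locus, the ratio was 0.997, about level. This ratio kept all reads of each gene, also any placed from shared windows, over a length without those windows. Such a count differs from merged exons in itself, with 3479 windows against 2999 exon bases for *Hsp90ab1*. How much of the change came from the windows that *Hsp90aa1* shares with pseudogenes was therefore not separated. *Hsp90ab1* itself had no shared window. *Stip1*, the adaptor (Hop) that holds Hsp70 and Hsp90 at once, had a base mean per kb of 2708, above *Hsp90b1* on merged exons and below it per kb of transcript. *Hspa8* was 3.41-fold above *Stip1* per kb of merged exons and 6.12-fold per kb of transcript.

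The J proteins were the largest group, with 40 members and 25.7% of the members' base mean. Their median base mean per kb was 252, and 31 of the 40 were above the background median. All J proteins share a domain that makes Hsp70 hydrolyse ATP, while class A and B proteins also bind clients and class C proteins differ widely in the rest of their sequence. The median base mean per kb was 474 over 4 *Dnaja* genes, 287 over 11 *Dnajb* and 193.5 over 25 *Dnajc* genes.

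The *Dnaja* genes were all above the background median. *Dnaja2*, a cytosolic partner of Hspa8, had a base mean per kb of 1168, and *Dnaja1*, its relative, had 566.5 per kb. *Dnaja2* stayed above *Dnaja1* per kb of transcript, at 1191 against 869. Per kb of coding sequence the order turned, with *Dnaja1* at 4104 and *Dnaja2* at 2812. *Dnaja3*, the J protein of the mitochondrial matrix, had 382 per kb, and *Dnaja4* had 356.5 per kb. Of the exon bases of *Dnaja4*, 44.1% overlap *Wdr61* on the opposite strand.

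Among the *Dnajb* genes, *Dnajb2* was highest with a base mean per kb of 966. It encodes a J protein enriched in neurons that passes clients to the proteasome. J proteins of the endoplasmic reticulum, *Dnajb9* at 394 per kb, *Dnajb11* at 349 and *Dnajb12* at 287, stood close to *Dnajb1*, the heat-inducible cytosolic form, at 320.5 per kb. The low end was held by *Dnajb14*, of the endoplasmic reticulum, at 31.6 per kb, *Dnajb3* at 22.7 and *Dnajb13*, a protein of cilia and sperm tails, at 6.52. *Dnajb6*, which suppresses the aggregation of polyglutamine proteins, *Dnajb5* and *Dnajb4* lay between, from 141 to 291 per kb.

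The highest *Dnajc* genes included J proteins of the synapse. *Dnajc5* encodes cysteine string protein, which chaperones SNARE proteins on synaptic vesicles, and it had the highest base mean per kb of merged exons of all J proteins, 1176. Per kb of transcript it had 1243, below *Dnajc7* at 1504 and *Dnajb2* at 1339. *Dnajc6* encodes auxilin, the neuronal protein that has Hsc70 strip clathrin from vesicles, and stood at 1012 per kb. *Dnajc13*, a J protein of endosomes, was lower, at 130 per kb. *Dnajc27*, a Rab-like protein with a J domain, had 1033 per kb, *Dnajc7*, which binds both Hsp70 and Hsp90, 721 per kb, and *Dnajc8*, a protein linked to splicing, 670.5 per kb.

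Per kb of coding sequence *Dnajc5* was 6.68-fold above *Dnajc6*, against 1.16-fold per kb of merged exons, so their order held and its size did not. The lowest *Dnajc* genes were *Dnajc12*, a co-chaperone of aromatic amino acid hydroxylases, at 80.7 per kb, *Dnajc1*, of the endoplasmic reticulum, at 62.1 per kb and *Dnajc25* at 11.7 per kb. The other 16 *Dnajc* genes were *Dnajc2*, *Dnajc3*, *Dnajc4*, *Dnajc9*, *Dnajc10*, *Dnajc11*, *Dnajc14*, *Dnajc15*, *Dnajc16*, *Dnajc17*, *Dnajc18*, *Dnajc19*, *Dnajc21*, *Dnajc24*, *Dnajc28* and *Dnajc30*. They ranged from 85.2 per kb for *Dnajc28* to 585 per kb for *Dnajc18*.

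**Figure D3:**
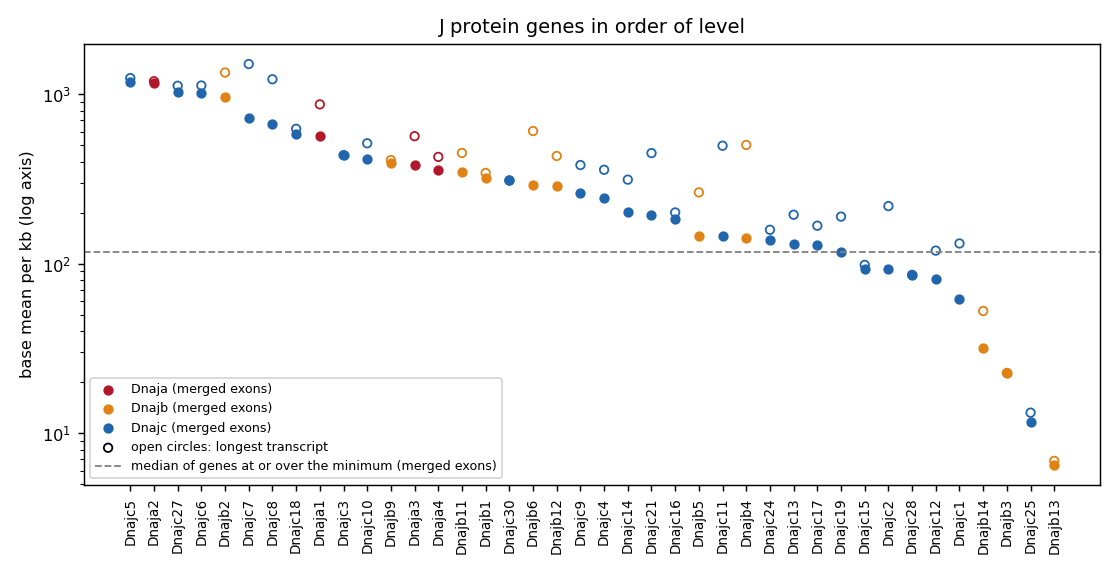
Base mean per kb (log axis) of the 40 J protein genes in order of level, pooled over 10 libraries; filled circles use the merged exons as length, open circles the longest transcript, colours mark the class, and the dashed line is the median of the genes at or over the minimum on merged exons. *Dnajc5*, *Dnaja2*, *Dnajc27* and *Dnajc6* lie above 1000 per kb, and *Dnajb13* is lowest at 6.52.

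Grouped by the place where their proteins work, the J protein genes overlapped widely in level. The 3 of vesicles and endosomes had a median base mean per kb of 1012, the 7 of the endoplasmic reticulum of 349, the 10 of the cytosol of 338.5, the 3 of the nucleus of 262 and the 6 of mitochondria of 132. *Dnaja3*, at 382 per kb, was the highest of the mitochondrial group on merged exons and *Dnajc28* the lowest. The places were assigned by hand from general knowledge, and 11 J protein genes were given none. These ranged from *Dnajb13* at 6.52 per kb to *Dnajc27* at 1033, so the medians and their order may change with other choices.

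The CCT ring is built from 8 different subunits, each of which stands once in each ring. All 8 genes were above the background median, and together they held 11.0% of the members' base mean. In base mean per kb of merged exons they ran from 462 for *Cct3* and 547 for *Cct4* through 673 for *Cct7*, 823 for *Tcp1* and 862 for *Cct6a* to 1367 for *Cct2*, 1416 for *Cct5* and 1423 for *Cct8*. The highest was 3.08-fold above the lowest.

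The order within the ring changed with the length used. The merged exons of *Cct3* are 6370 bases long and its longest transcript 1977, and per kb of transcript *Cct4* was lowest at 925.2 and *Cct5* highest at 2114.2. The ratio of highest to lowest was 2.29 per kb of transcript and 1.97 per kb of coding sequence. Both ratios cover 7 subunits, since the annotation gives *Cct6a* no coding transcript. The 20S proteasome core, another complex of many subunits, was chosen for comparison after the values had been seen. The 14 genes taken for it spanned 5.20-fold per kb of transcript and 2.49-fold per kb of coding sequence. A ratio of highest to lowest tends to grow with the number of genes, here 14 against 7. No spread between mice is available to say whether the subunits of either complex differ.

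**Figure D4:**
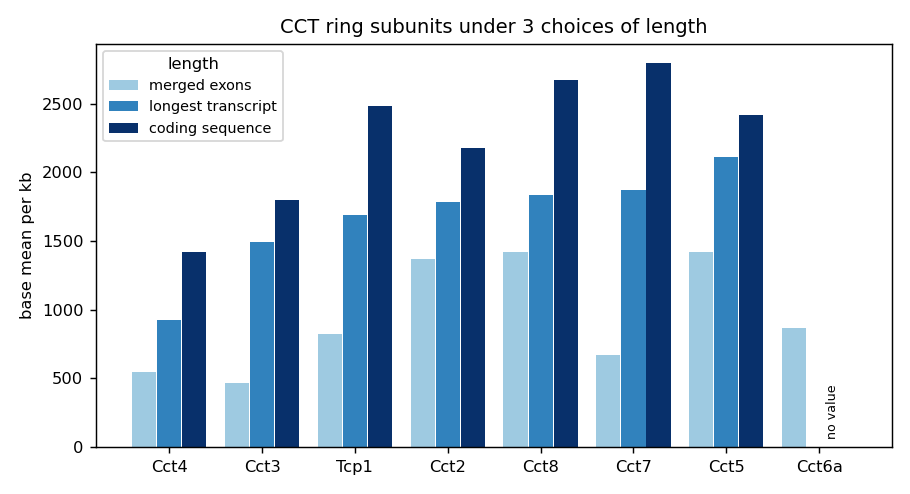
Base mean per kb of the 8 CCT ring subunit genes, pooled over 10 libraries, with length taken as merged exons, as the longest transcript or as the coding sequence; each bar is 1 gene under 1 length, and *Cct6a* has only the first. *Cct4* is lowest and *Cct5* highest per kb of transcript, at 925.2 and 2114.2.

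The mitochondrial chaperonin genes *Hspd1* (Hsp60) and *Hspe1* (Hsp10) held 2.16% of the members' base mean. The genes lie head to head on chromosome 1, with *Hspe1* on the plus and *Hspd1* on the minus strand, and their annotated ends overlap by 112 bases. *Hspd1* had a base mean per kb of 1744 and *Hspe1* of 701.5, a ratio of 2.49. Per kb of coding sequence the ratio was 0.793, so that the order turned. *Hspe1* encodes a small protein, and its merged exons are mostly outside the coding sequence.

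Heat shock genes are known to be induced by Hsf1, which binds heat shock elements made of alternating GAA and TTC units. In the RefSeq promoter windows of GRCm38.p6, from 250 bases before to 50 after a start, elements of 2 inverted units, GAANNTTC or TTCNNGAA, were searched for. Each of these motifs reads the same on both strands, and they may overlap. Windows were found for 59 of the 72 members, and 14 of these (23.7%) held such an element, against 17.0% of all 27025 RefSeq genes and 13.9% of the 12482 with a base mean of at least 10. A run of 3 alternating units stood in 4 members (6.78%), *Hspd1*, *Hspe1*, *Dnajb6* and *Hsph1*. The share was 0.662% of all RefSeq genes and 0.545% of those with a base mean of at least 10. *Hspd1* and *Hspe1* have the same stretch, read on opposite strands, so the count of members includes it for both genes. Those without a window were *Bag4*, *Cct4*, *Dnajc2*, *Dnajc5*, *Dnajc11*, *Dnajc12*, *Dnajc18*, *Dnajc30*, *Hsp90aa1*, *Hsp90ab1*, *Hspa8*, *Hspa9* and *Hspa13*.

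The 120 bases before the RefSeq starts of *Hspe1* and *Dnajb6* are shown because each holds a run of 3 or more alternating units there. The bases shown are chr1:55088028-55088147 for *Hspe1* and chr5:29735778-29735897 for *Dnajb6*, both on the plus strand. The capitals mark the matches, which begin 89 bases before the start of *Hspe1* and 46 bases before that of *Dnajb6*. *Dnajb6* has another RefSeq window, chr5:29735729-29736028, which also holds the match and whose start lies further from it.
Hspe1: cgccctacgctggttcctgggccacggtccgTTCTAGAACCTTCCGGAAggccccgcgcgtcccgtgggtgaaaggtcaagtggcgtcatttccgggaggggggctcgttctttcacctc
Dnajb6: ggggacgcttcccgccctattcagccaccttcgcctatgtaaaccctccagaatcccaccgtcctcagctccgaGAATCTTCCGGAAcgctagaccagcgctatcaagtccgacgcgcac

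The capitals before *Hspe1* are also those of *Hspd1*, read on the other strand, since the windows of these genes overlap. In *Hsph1* the run of 3 units lies after the start. *Hspa1a* and *Hspa1b* each held 1 element of 2 units and none of 3. Only units without a mismatch and inside these windows were counted, so elements with a changed unit or further away would be missed. A match is a match of letters only, and nothing in these data shows whether a factor was bound there. The 4 genes with the longer run were not alike in level, with base means per kb from 291 for *Dnajb6* to 1744 for *Hspd1*.

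The partners of these chaperones were all detected. All 9 co-chaperones and regulators were over the minimum, from *Hsf2*, a heat shock factor, at a base mean per kb of 42.8 to *Hsbp1*, which binds heat shock factor, at 1439. All 13 genes in the list around Hsp90, *Trap1* among them, were over it. They ran from *Fkbp5*, an immunophilin induced by glucocorticoids, at 69.8 per kb to *Fkbp4*, its relative that favours receptor activity, at 1489. The 6 subunits of prefoldin, which hands actin and tubulin to the CCT ring, ran from 110 per kb for *Pfdn4* to 1567 for *Pfdn5*. The 5 cofactors of tubulin folding, which act after the ring, ran from 213 per kb for *Tbce* to 1081 for *Tbcb*. Per kb of transcript *Ahsa1*, at 2159, was highest around Hsp90, and the ends of the tubulin cofactors were *Tbca* at 1225 and *Tbcc* at 273.4. The median base mean per kb of merged exons was 374 for the regulators, 356 for the list around Hsp90, 748 for prefoldin and 273 for the tubulin cofactors, each above the background median of 116.5.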

How the data were processed

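Libraries were stranded, poly(A)-selected and read in pairs. Per the labels and methods, the authors filtered reads with Fastp, aligned them to mm10 with HISAT2 2.1.0, counted uniquely mapped reads with featureCounts 2.0.2 and ran DESeq2. The authors deposited 1 table without values of single libraries, so depth per library is unknown. Its base mean, the signal used here, is the authors' pooled mean of counts divided by size factors. The other 5 columns (log2 fold change, standard error, Wald statistic, p-value and adjusted p-value) hold the authors' own comparison of the genotypes and were not used. No test was made.

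Members and lists were chosen with earlier results of these data known. All genes of the small families were named, and of larger J protein classes the 5 highest and 3 lowest per kb. Lengths came from GENCODE M21 (GRCm38, as mm10), matched by symbol for 96.5% of genes. The longest transcript, the coding length, other base mean minimums, *Hspa5* put back, 3 genes with copies left out and a longer motif were alternatives. Scripts (Python 3.11.15, pandas 2.3.3) were tested on simulated data. Some genes of the marker lists are not reported here.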

Additional observations from a re-analysis of the deposited data

How the results depend on the processing

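The number of members stayed within 1.5 times of 72 when the minimum was 1 (76) or 100 (68) or *Hspa5* was put back (73). The members' share of all base mean, 1.18%, became 1.21% with *Hspa5*, 1.00% without *Hspa1a*, *Hspa1b* and *Hspa8*, and 1.28% per kb. Their median base mean of 1409.0 became 1257.4 at a minimum of 1 and 1559.8 at 100. With the longest transcript or the GENCODE coding sequence as length, the median per kb of 352.9 became 449.7 or 1074.3, the ratio within the CCT ring of 3.08 became 2.29 or 1.97, and the ratio of *Hsp90ab1* to *Hsp90aa1* of 1.84 became 1.83 or 1.42. With length counted as unshared windows, which are not merged exons, the last ratio was 0.997, just under 1. The share of member genes with a promoter element was 23.7% for 2 units and 6.78% for 3. Coding length and shared windows were chosen after seeing the data, and lengths from RefSeq proteins were not run. A shorter length raises every gene's level per kb by construction.

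Leaving out a replicate was not possible, because the base mean pools the 10 libraries. No paired analysis was possible because the table has no columns of single libraries. The depth behind each level is unknown.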
